A study of Homo sapiens with 6 samples.

Results

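LINC symbols are placeholder names for long intergenic noncoding RNAs, genes that were catalogued before a function was known. The 103 LINC RNAs described here are all symbols made of LINC and digits that reached a total of at least 60 counts over the 6 libraries, out of 874 such symbols in the count tables. Of the others, 335 had 1 to 59 counts and 436 had 0. They were chosen by their counts summed over both groups, so a member high in 1 group alone can enter through that group. Just above the limit stood LINC00482 with 60 counts, LINC01239 with 64 and LINC00312 with 66, and just below it LINC00668, LINC01061 and LINC01556 with 59 each. H460, a human lung cancer line of large-cell type, was starved of glutamine for 24 h in RPMI medium with 10% dialyzed serum (glutamine-depleted, 3 libraries). These cells were set against glutamine-replete H460 cells (3 libraries), for which the labels give RPMI medium with 10% fetal bovine serum and penicillin and streptomycin as the usual culture. Whether the replete cells also received dialyzed serum over those hours is not spelled out, so glutamine and serum dialysis cannot be told apart here. H460 carries an inactive STK11 (LKB1) gene and a mutated KEAP1 gene, in both groups.

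Long noncoding RNAs are transcribed, spliced and polyadenylated much like messenger RNAs but have no long reading frame. Some act in the nucleus on the gene beside them, some bind proteins or microRNAs in the cytoplasm, some are only the precursor of a microRNA, and a few LINC genes later proved to encode a small protein. Most are present at a few copies per cell or fewer. Glutamine feeds the synthesis of nucleotides, amino acids and glutathione, and its loss activates the amino acid stress response in many tumour cells.

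The libraries were made by 3′-end mRNA sequencing, in which a transcript gives reads from near its poly(A) tail whatever its length. Library totals ran from 8667798 to 10914899 counts in depleted and from 7550849 to 9028230 in replete cells. Levels are counts scaled to a common library total (CPM). A count of 0 allows a level of up to 3 counts, or 0.275 to 0.397 CPM per library, and this limit and the intervals below cover counting error only. Depleted replicate 2 stood apart: its chi-square per degree of freedom was 19.4 against replicate 1 and 11.7 against replicate 3, and the other pairs within a group gave 1.51 to 3.92. No replicate pair agreed within sampling noise. Separate cultures are not named in the labels, and the p-values rest on the spread among these libraries alone, part or all of which may be technical. The epithelial keratins KRT8, KRT18 and KRT19 were present and EPCAM and CDH1 were close to 0. The epithelial list summed to 761 to 881 CPM in depleted and 2067 to 2092 CPM in replete cells. Endothelial markers stayed at or below 0.115 CPM in depleted and 0.665 CPM in replete libraries, with VWF and CDH5 at 0. The fibroblast list summed to 16.8 to 86.1 CPM in depleted cells and 18.1 to 29.1 CPM in replete cells. The neuronal list, carried by SYT1 and MAP2, summed to 124.5 to 149.5 CPM in depleted and 80.3 to 92.6 CPM in replete cells, and the blood list, carried by CD68, to 4.27 to 5.96 CPM in depleted and 6.98 to 9.22 CPM in replete cells. In bulk RNA, fewer cells of a kind and less RNA per cell cannot be told apart.

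Taken as a class, LINC RNAs took up more of the depleted libraries, and on library totals LINC00152 made up the whole difference. Their summed level was 4132, 4342 and 4163 CPM in depleted replicates 1, 2 and 3, against 2366, 2347 and 2386 CPM in replete replicates 1, 2 and 3. The ranges did not overlap. Without LINC00152 the sums were 2129, 2042 and 2087 CPM in depleted cells, against 2118, 2092 and 2109 CPM in replete cells, and the ranges overlapped. That overlap depends on the scaling: divided by the trimmed-mean (TMM) factors that the fold changes use (a choice added after the data were seen), the sums without LINC00152 were 2292, 2228 and 2251 CPM in depleted cells, against 1949, 1938 and 1954 CPM in replete cells, and did not overlap. On that scale LINC00152 had 2156, 2508 and 2239 CPM in depleted cells, against 228, 237 and 258 CPM in replete cells, and so still made up most of the difference. LINC00152 made up 48.5, 53.0 and 49.9% of the members' counts in the depleted libraries, against 10.5, 10.9 and 11.6% in the replete ones. Within the remainder, single members changed in both directions. Counts under the LINC00152 symbol may include reads of MIR4435-2HG, a gene with a matching stretch in its 3′ part (given below).

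**Figure D1:**
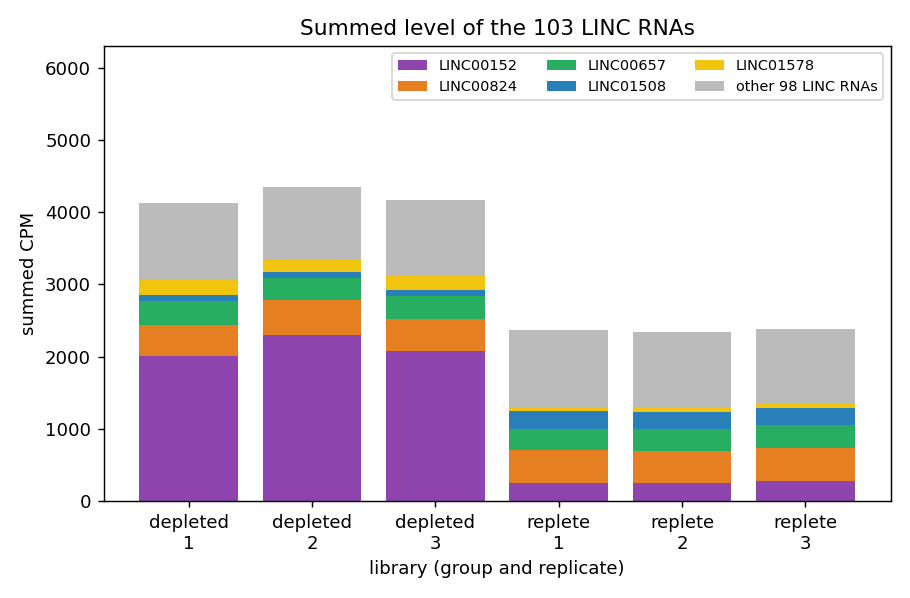
Summed level of the 103 LINC RNAs in each library (CPM on library totals, linear axis from 0), stacked as the 5 most abundant members and the other 98; depleted libraries are on the left and replete libraries on the right. The part without LINC00152 lies between 2042 and 2129 CPM in all 6 libraries, while LINC00152 adds 2003 to 2299 CPM in depleted and 248 to 278 CPM in replete cells.

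All 103 members passed the filter on low counts. In edgeR's quasi-likelihood test with Benjamini-Hochberg adjustment over 12739 genes, 85 members (82.5%) passed an adjusted p of 0.05, beside 78.6% of all tested genes. Of these, 45 (43.7%) were higher in depleted cells, beside 39.1% of all genes, and 40 (38.8%) were lower, beside 39.4%. The share called was thus near the background. By size, 37 members (35.9%) were more than 2-fold higher and 32 (31.1%) more than 2-fold lower, beside 21.8% and 23.7% of all tested genes. More than 8-fold, the shares were 11.7% higher and 7.77% lower (12 and 8 members), beside 3.47% and 3.19%. The median absolute log2 fold change was 1.61 over the members and 0.90 over all tested genes, and the median signed value was 0.12 over the members and -0.02 over all genes. The median of 0.12 is the same with the 1 member at 0 in every replete library, LINC00431, set to its bound. That had to be so, since the bound still lies above the median.

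Members were also low in level, with a median of 5.39 CPM over the 6 libraries beside 20.5 CPM over all tested genes. Among the 86 members below 20 CPM, 71 (82.6%) were called, beside 74.1% of the 6288 tested genes below that level. Of these 86, 37.2% were more than 2-fold higher and 34.9% more than 2-fold lower, beside 20.6% and 31.6% of the genes at that level. More than 8-fold, 12.8% of them were higher and 9.3% lower, beside 4.5% and 5.17%. A low gene passes the filter more easily when 1 group is high. In 60 members the filter's level of 1.15 CPM was reached in every library of both groups, and 27 of these were higher, 21 lower and 12 not called. It was reached in every depleted library but not in every replete one by 18 members, all called higher, and in every replete library alone by 22, of which 19 were called lower. Members of these 2 sets passed through 1 group and had to lean towards it, and nothing is read from their size. They and the 3 mixed members held 10 of the 12 members over 8-fold higher and 7 of the 8 over 8-fold lower. Among the 60 members at the filter's level in both groups, 20 (33.3%) were more than 2-fold higher and 13 (21.7%) more than 2-fold lower, beside 20.6% and 19.1% of the 10869 tested genes of that kind. Only 2 (3.33%) were more than 8-fold higher and 1 (1.67%) more than 8-fold lower, beside 1.7% and 1.09%. This split was chosen after the data were seen. The median absolute log2 fold change was 1.08 over these 60 members and 0.78 over those genes. Among the other 379 tested lncRNAs of RefSeq, 275 (72.6%) were called, 136 (35.9%) higher and 139 (36.7%) lower. More than 2-fold, 26.6% of these lncRNAs were higher and 26.9% lower, and more than 8-fold 4.75% and 3.96%.

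**Figure D2:**
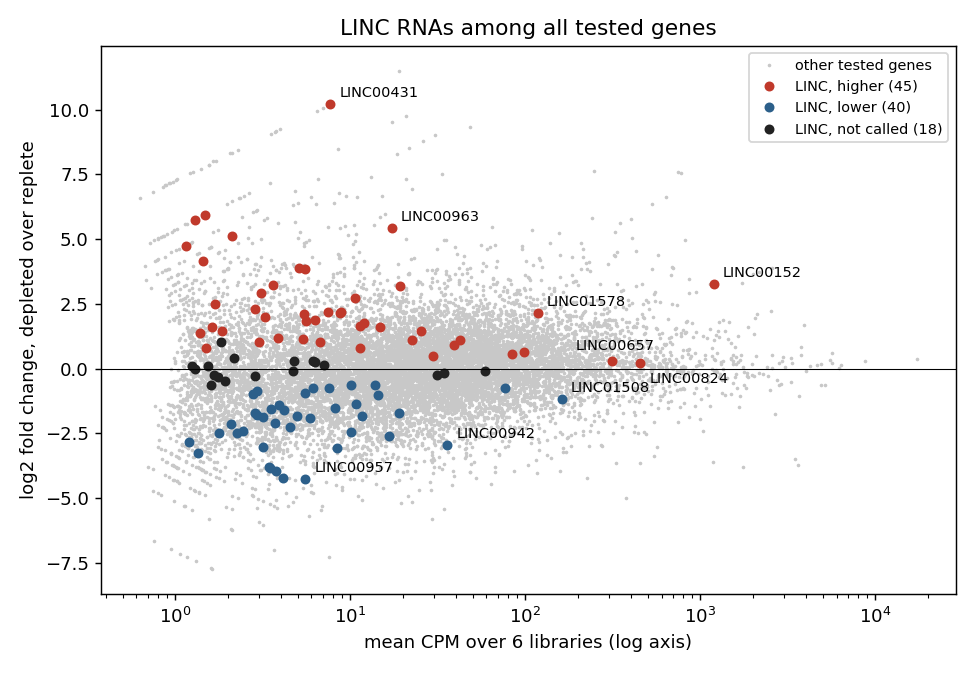
Log2 fold change of each LINC RNA, depleted over replete, against its mean level over 6 libraries (CPM, log axis); each point is 1 member, coloured by its call in edgeR's test, and grey points behind are all tested genes. LINC00152 stands alone at high level and large change, and most large changes in either direction are of members below 20 CPM.

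CPM ranges of the groups did not overlap for 84 members (81.6%), beside 81.0% of all tested genes. Of these 84, 81 were called and LINC00339, LINC01296 and LINC00592 were not. LINC00473, LINC00999, LINC00657 and LINC00824 were called although their CPM ranges overlapped. The spread within a group was small: over members of at least 2 CPM, the median coefficient of variation was 14.2% in depleted cells (70 members) and 11.2% in replete cells (80 members). Across the 103 members, the mean levels in depleted and replete cells on the log2(CPM + 0.5) scale had a Pearson r of 0.62, a description across genes that share the same libraries.

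**Figure D3:**
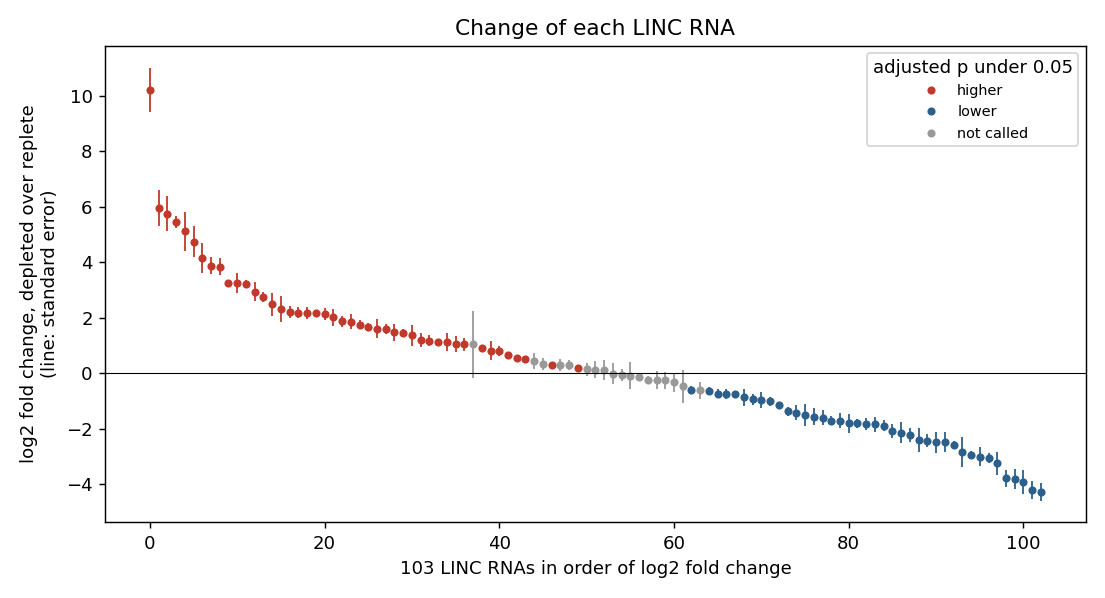
Log2 fold change of each of the 103 LINC RNAs, depleted over replete, in falling order, with its standard error as a line; colours give the call in edgeR's test (45 higher, 40 lower, 18 not called). The leftmost point is LINC00431, with 0 counts in replete cells, whose fitted value depends on the prior count and is no bound.

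LINC00152, now named CYTOR, is a mostly cytoplasmic RNA that has been studied as a growth-promoting transcript in several cancers. It was the most abundant LINC RNA in depleted cells, and in replete cells it stood below LINC00824 and LINC00657. It had 2003, 2299 and 2076 CPM in depleted cells, against 248, 256 and 278 CPM in replete cells. All 3 depleted libraries lay far above all 3 replete libraries. The mean was 2126 ± 154 CPM in depleted cells and 260.5 ± 15.7 CPM in replete cells (SD, n = 3 each), with a log2 fold change of 3.26 (SE 0.08, adjusted p = 1.86e-12). The last 300 bases of a LINC00152 transcript match MIR4435-2HG, a related gene not analysed here, at 100% identity. AC017002.1 and AC017002.6, also not analysed here, match at 98.6% and 98.7%. Reads of these genes may not be told apart from those of LINC00152. The other 2 members above it in replete cells changed less. LINC00824 had 429, 479.6 and 439.7 CPM in depleted cells, against 463, 446 and 463 CPM in replete cells, and the groups overlapped. Its log2 fold change of 0.20 (adjusted p = 0.0144) turned to -0.03 with library totals alone and to -0.01 with upper quartile factors. The adjusted p was 0.0616, 0.0958 and 0.0550 without replete replicate 1, 2 and 3 in turn. Part of the last 300 bases of LINC00824, 162 to 181 bases, matches 19 other counted symbols at 97% identity or more. The match could lie on either strand and anywhere in the 3′ part of the other gene. RN7SL718P, not analysed here, matches at 100% over 162 bases. The counts of LINC00824 are thus uncertain.

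LINC00657, or NORAD, is an abundant cytoplasmic RNA that binds the Pumilio proteins and is known for its part in chromosome stability. It had 335, 304 and 322 CPM in depleted cells, against 289.5, 302 and 319 CPM in replete cells, with overlapping groups. The log2 fold change was 0.31 (SE 0.07, adjusted p = 0.00118), but 0.08 (adjusted p = 0.302) with library totals alone and adjusted p = 0.230 with upper quartile factors. Those 2 scalings moved the median of all genes by -0.23 and -0.21. LINC01508, a little studied RNA, went the other way, at 90.6, 87.2 and 91.1 CPM in depleted cells, against 241, 230.2 and 231 CPM in replete cells. The groups were well apart (log2 fold change -1.16, SE 0.07, adjusted p = 6.30e-09).

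**Figure D4:**
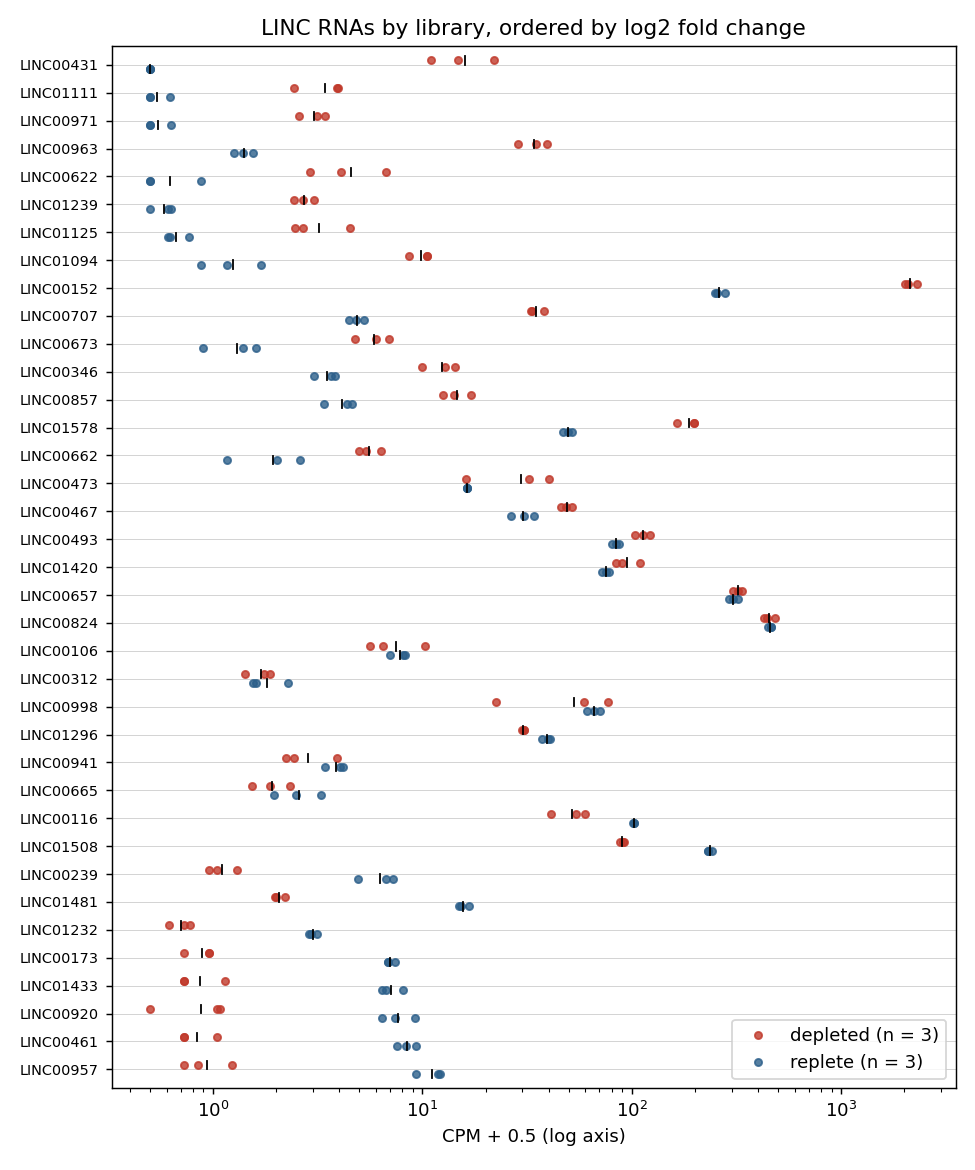
Level of selected LINC RNAs in each library (CPM, log axis after adding 0.5); each point is 1 library, black bars are group means, and the depleted libraries are drawn above the replete ones for each of the 37 genes. LINC00152, LINC01578 and LINC00963 have all 3 depleted points above all 3 replete points, while LINC00657 and LINC00824 overlap.

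LINC01578, or CHASERR, lies next to CHD2, which encodes a chromatin remodeler, and is known in mouse and human cells to restrain CHD2 from the same chromosome. It had 197, 164 and 198 CPM in depleted cells, against 51.1, 49.3 and 46.6 CPM in replete cells (log2 fold change 2.15, SE 0.09, adjusted p = 2.19e-10). CHD2 itself averaged 206 ± 7.12 CPM in depleted cells and 41.1 ± 2.87 CPM in replete cells (SD, n = 3 each), with a log2 fold change of 2.55. Both genes of the pair were thus higher in every depleted library than in any replete one.

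Motifs in promoters were counted over all members. The promoters of 4 rising members that hold the AP-1 motif, and that of the 1 falling member that holds it, are printed to show where it lies. Each runs from 250 bases before to 50 after the start of transcription, from RefSeq on GRCh38.p14, written 5′ to 3′ in the direction of transcription, with the motif TGANTCA on either strand in capitals. They lie at chr9:129488410-129488709 (+ strand) for LINC00963, chr4:78645744-78646043 (+ strand) for LINC01094, chr2:87455177-87455476 (+ strand) for LINC00152, chr13:110870259-110870558 (- strand) for LINC00346 and chr12:9239823-9240122 (+ strand) for LINC00987.
LINC00963: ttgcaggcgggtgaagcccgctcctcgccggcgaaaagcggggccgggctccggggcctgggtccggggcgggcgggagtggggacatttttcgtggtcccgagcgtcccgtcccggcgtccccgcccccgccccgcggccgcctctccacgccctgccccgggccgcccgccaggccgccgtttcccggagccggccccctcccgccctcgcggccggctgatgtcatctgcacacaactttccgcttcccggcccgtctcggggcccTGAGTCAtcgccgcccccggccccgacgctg
LINC01094: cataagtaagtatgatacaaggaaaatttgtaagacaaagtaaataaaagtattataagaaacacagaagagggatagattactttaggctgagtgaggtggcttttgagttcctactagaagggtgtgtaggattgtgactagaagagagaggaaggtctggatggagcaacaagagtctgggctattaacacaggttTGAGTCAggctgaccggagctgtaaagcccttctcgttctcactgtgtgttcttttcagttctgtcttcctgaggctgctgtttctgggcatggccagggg
LINC00152: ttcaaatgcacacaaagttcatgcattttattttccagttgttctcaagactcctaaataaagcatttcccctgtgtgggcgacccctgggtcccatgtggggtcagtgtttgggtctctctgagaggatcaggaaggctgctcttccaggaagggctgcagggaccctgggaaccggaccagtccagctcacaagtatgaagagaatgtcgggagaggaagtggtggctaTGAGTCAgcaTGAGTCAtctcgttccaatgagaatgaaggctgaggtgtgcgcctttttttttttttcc
LINC00346: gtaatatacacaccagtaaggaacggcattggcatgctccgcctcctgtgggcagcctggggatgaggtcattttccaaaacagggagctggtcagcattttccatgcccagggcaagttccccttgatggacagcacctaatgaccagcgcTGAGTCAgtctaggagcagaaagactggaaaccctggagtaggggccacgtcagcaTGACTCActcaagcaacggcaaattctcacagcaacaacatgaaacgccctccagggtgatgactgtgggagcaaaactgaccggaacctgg
LINC00987: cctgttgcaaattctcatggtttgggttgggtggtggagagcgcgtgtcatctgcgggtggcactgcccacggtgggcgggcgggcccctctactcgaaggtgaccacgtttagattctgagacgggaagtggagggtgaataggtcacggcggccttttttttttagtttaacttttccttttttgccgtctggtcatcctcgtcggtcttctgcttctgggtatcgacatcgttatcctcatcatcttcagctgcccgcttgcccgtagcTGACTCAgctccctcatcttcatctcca

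AP-1 factors are dimers of FOS and JUN family proteins. Of the 79 members with a promoter entry, TGANTCA was found in 5 of 32 called higher (15.6%), 1 of 33 called lower (3.03%) and 2 of 14 not called (14.3%), beside 7.76% of 27305 promoters of the same length. The motif began at -19 and -9 from the start of LINC00152, at -98 and -42 in LINC00346, at -51 in LINC01094, at 19 in LINC00963 and at 22 in LINC00987. The fifth rising member with it was LINC01002, at -16. Those not called were LINC00339, at -101 and 36, and LINC01001, at -83. The letters on both sides of the motif are the same in LINC01001 and LINC01002. LINC00963, LINC01094 and LINC01002 passed the filter through the depleted group and had to lean towards it. The higher and lower shares are therefore not an even comparison. The cAMP element TGACGTCA was in 2 of 32 promoters of higher members, LINC00265 and LINC00706, and in 0 of 33 lower ones, beside 1.98% of all promoters. LINC00706 too passed the filter through the depleted group. The composite TGATGNAA, bound by ATF4 with CHOP, was in 0 of 32 higher and 1 of 33 lower members, LINC00116, beside 3.67% of all promoters. The NF-Y box CCAAT was in 37.5% of higher and 33.3% of lower members, beside 35.7% of all. All 4 were searched on both strands, TGACGTCA does not contain TGANTCA, and the counts are small. A match describes the letters and says nothing of binding.

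LINC00963, studied in prostate and other cancers, had the largest rise among members with counts in every library. It stood at 34.2, 38.7 and 28.0 CPM in depleted cells, against 0.886, 0.758 and 1.06 CPM in replete cells, with means of 33.6 ± 5.36 CPM in depleted cells and 0.901 ± 0.151 CPM in replete cells (SD, n = 3 each). Its log2 fold change was 5.43 (SE 0.22, adjusted p = 1.45e-10). LINC00707, studied in lung adenocarcinoma, had 32.5, 37.5 and 33.0 CPM in depleted cells, against 4.76, 4.29 and 3.97 CPM in replete cells (log2 fold change 3.20, SE 0.14, adjusted p = 3.75e-10). LINC01094 had 9.99, 8.13 and 10.0 CPM in depleted cells, against 0.665, 0.379 and 1.19 CPM in replete cells (log2 fold change 3.87, SE 0.29, adjusted p = 5.68e-08). In each of these, every depleted library was several times above every replete library. LINC00963 and LINC01094 reached the filter's level in every depleted library but not in every replete one. They had to lean towards the depleted group, so nothing is read from their size. LINC00707 reached that level in both groups.

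Several rising members had almost no counts in replete cells. LINC00431 had 21.4, 10.4 and 14.3 CPM in depleted cells, against 0, 0 and 0 CPM in replete cells. Against 3 counts over the replete group this is at least 129-fold higher (adjusted p = 1.43e-05). It is annotated in GENCODE as a transcribed pseudogene, and part of its end matches TUBGCP3, a gene of the microtubule nucleation complex. TUBGCP3 fell, at 14.9 CPM in depleted and 57.8 CPM in replete cells (log2 fold change -1.73). LINC01111 had 84 counts over the 3 depleted libraries, against 1 over the 3 replete libraries, a ratio per library total of 72.7 (95% counting interval 12.7 to 2904). LINC00971 had 73 counts over the 3 depleted libraries, against 1 over the 3 replete libraries, a ratio of 63.2 (95% counting interval 11 to 2528). LINC00622 had 114 counts over the 3 depleted libraries, against 3 over the 3 replete libraries, a ratio of 32.9 (95% counting interval 11 to 162). For LINC01239 the counts were 62 in depleted and 2 in replete cells, a ratio of 26.8 (95% counting interval 7.12 to 226). LINC01125, now C2orf92, had 76 counts over the 3 depleted libraries, against 4 over the 3 replete libraries, a ratio of 16.4 (95% counting interval 6.16 to 61.9). These 5 were near the limit of detection in replete cells. Like LINC00431, they passed the filter through the depleted group, and nothing is read from their size.

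Of 16 LINC RNAs on a list of those studied in lung or other cancers, 10 were members, and 7 of them were higher, 0 lower and 3 not called, beside 39.1% of all tested genes higher and 39.4% lower. The list was drawn up with earlier results of these data known, so its count is a description and no independent evidence of a direction. Besides LINC00963 and LINC00707, those higher were LINC00673 (2.93 on the log2 scale), LINC00346 (2.19), LINC00857 (2.18), LINC00662 (2.01) and LINC00467 (0.92). LINC00673 and LINC00662, like LINC00963, reached the filter's level in every depleted library but not in every replete one. They had to lean towards the depleted group, so nothing is read from their size or their part in this count. LINC00346, now PRECSIT and known from skin carcinoma, had 12.3, 13.7 and 9.46 CPM in depleted cells, against 3.32, 2.53 and 3.18 CPM in replete cells. LINC00467 had 47.9, 51.4 and 45.6 CPM in depleted cells, against 33.6, 30.1 and 25.8 CPM in replete cells (adjusted p = 5.46e-06). The groups did not overlap for either gene. LINC00312, LINC00665 and LINC00941 were not called, with adjusted p of 0.813, 0.396 and 0.422 at means of 1.25, 1.75 and 2.86 CPM.

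LINC00473 is induced by cAMP through CREB and its CRTC coactivators and is known from lung cancers that lack LKB1. It had 39.8, 15.6 and 31.7 CPM in depleted cells, against 15.8, 15.8 and 15.9 CPM in replete cells. Depleted replicate 2 lay at the replete level, whereas the other 2 depleted libraries were above it. The log2 fold change was 1.11 (SE 0.33, adjusted p = 0.0178), and 1.41 without depleted replicate 2. Its adjusted p was 0.050, just above the threshold, when depleted replicate 3 was left out, and 0.0636 and 0.0573 when replete replicate 1 or 2 was left out. LINC01021, or PURPL, had 8.80, 5.73 and 11.2 CPM in depleted cells, against 4.76, 5.30 and 4.5 CPM in replete cells (log2 fold change 1.04, SE 0.23, adjusted p = 0.00113).

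Some LINC members are small-protein genes that were first listed as noncoding. Of 4 such members on the list, 2 were higher, 1 lower and 1 not called, which is near the shares of all tested genes (39.1% higher and 39.4% lower). LINC00493, which encodes the small mitochondrial membrane protein SMIM26, had 122, 103 and 113 CPM in depleted cells, against 83.3, 80.2 and 86.1 CPM in replete cells (log2 fold change 0.66, SE 0.08, adjusted p = 8.53e-06). LINC01420, or NBDY, encodes a micropeptide of the mRNA decapping complex and had 88.8, 109 and 83.6 CPM in depleted cells, against 77.6, 71.6 and 74.6 CPM in replete cells (log2 fold change 0.56, adjusted p = 0.000267). LINC00116, or MTLN, encodes a small mitochondrial inner membrane protein linked to fatty acid oxidation. It had 53.9, 40.8 and 59.1 CPM in depleted cells, against 102, 101 and 102 CPM in replete cells (log2 fold change -0.76, SE 0.11, adjusted p = 4.22e-05), with all depleted libraries below all replete ones. LINC00998, or SMIM30, another small membrane protein, had 76.3, 21.9 and 58.8 CPM in depleted cells, against 69.6, 65.3 and 60.8 CPM in replete cells. Depleted replicate 2 was far below the other 5 libraries, and the gene was not called (log2 fold change -0.09, adjusted p = 0.880). Without that library its value was 0.29 (adjusted p = 0.00512).

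In current RefSeq, 8 of the 103 members are protein-coding genes, 94 lncRNA genes and 1 a transcribed pseudogene, and 25 have a new symbol. Besides the 4 small-protein genes, those now coding are LINC00094, LINC00341, LINC01125 and LINC01279. LINC01279 is now part of CCDC80, a secreted matrix protein gene, and had 0.275, 0.802 and 6.0 CPM in depleted cells, against 0.665, 1.77 and 1.46 CPM in replete cells. Depleted replicate 3 was the high one, and the gene was not called (adjusted p = 0.463). The separate CCDC80 entry had 76.2, 78.5 and 182 CPM in depleted cells, against 87.1, 97.4 and 109 CPM in replete cells. The collagen gene COL1A1, a fibroblast marker, had 7.51, 6.19 and 56.5 CPM in depleted cells, against 3.43, 8.97 and 13.4 CPM in replete cells, and was likewise highest in depleted replicate 3. The part of fibroblast-type transcripts in the value of LINC01279 was not tested.

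Among the members that fell, LINC00957 and LINC00461 had the largest decreases. LINC00957 had 0.733, 0.344 and 0.231 CPM in depleted cells, against 11.4, 8.84 and 11.7 CPM in replete cells (log2 fold change -4.27, SE 0.32, adjusted p = 4.56e-08). Part of its end, 184 of 300 bases, matches RASA4 at 97.8% identity. RASA4 is a RAS GTPase activator gene that fell as well (log2 fold change -1.27, adjusted p = 0.00805), and the counts of LINC00957 are uncertain. LINC00461, now MIR9-2HG, is a host gene of miR-9, a microRNA known from neural development, and was the only one of 3 listed microRNA hosts among the members. It had 0.550, 0.229 and 0.231 CPM in depleted cells, against 7.09, 8.84 and 7.81 CPM in replete cells (log2 fold change -4.21, SE 0.33, adjusted p = 7.80e-08). The depleted libraries stood close to the limit of detection for both genes. Both reached the filter's level in the replete libraries alone and had to lean towards them, so nothing is read from their size. LINC00472, whose locus holds 2 microRNAs of the miR-30 family, had 7.97, 6.64 and 6.92 CPM in depleted cells, against 12.5, 13.3 and 13.0 CPM in replete cells (log2 fold change -0.61, adjusted p = 0.00195). Both arms of each microRNA gene of these loci are printed with the seed (bases 2 to 8), which pairs with target messages, in capitals. The 5p arms of the miR-30 pair share a seed, and the other 4 arms each have a seed of their own. Mature microRNAs have no poly(A) tail and were not measured. Sequences and positions are from RefSeq on GRCh38.p14, all on the - strand, with miR-9-5p at chr5:88666902-88666924, miR-9-3p at chr5:88666866-88666887, miR-30a-5p at chr6:71403595-71403616, miR-30c-5p at chr6:71377003-71377025, miR-30a-3p at chr6:71403554-71403575 and miR-30c-2-3p at chr6:71376964-71376985.
hsa-miR-9-5p: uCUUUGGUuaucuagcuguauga
hsa-miR-9-3p: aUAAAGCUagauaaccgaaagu
hsa-miR-30a-5p: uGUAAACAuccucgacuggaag
hsa-miR-30c-5p: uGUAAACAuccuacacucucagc
hsa-miR-30a-3p: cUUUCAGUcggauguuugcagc
hsa-miR-30c-2-3p: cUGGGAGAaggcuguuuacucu

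Other large decreases were those of LINC00920 (-3.94 on the log2 scale), LINC01433 (-3.82), LINC00173 (-3.79), LINC01232 (-3.25) and LINC00239 (-3.0). Each was below 1 CPM in all 3 depleted libraries and above 2 CPM in all 3 replete ones. They too passed the filter through the replete group, and nothing is read from their size. LINC00942 fell at a higher level, with 6.32, 8.93 and 6.11 CPM in depleted cells, against 65.8, 62.6 and 64.8 CPM in replete cells (log2 fold change -2.95, SE 0.14, adjusted p = 5.17e-10). LINC00632, the host transcript of the circular RNA CDR1-AS, had 5.41, 5.15 and 5.31 CPM in depleted cells, against 14.4, 16.3 and 17.9 CPM in replete cells (log2 fold change -1.38, adjusted p = 2.79e-06). The circular RNA has no poly(A) tail and was not measured.

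The GENCODE annotation held 95 of the members. By it, 20 had exons that overlap another counted gene, 18 of them on the opposite strand only, and these 20 comprised 3 higher, 15 lower and 2 not called members, beside 39.1% of all tested genes higher and 39.4% lower. Overlap was thus found for 6.67% of the higher and 37.5% of the lower members. Members absent from GENCODE count here as without overlap, and such shares were not computed over all tested genes. LINC00526, LINC00936, LINC00957, LINC01011 and LINC01232, all lower with overlap, passed the filter through the replete group and had to lean towards it. Nothing is read from the difference of these shares. Whether the counting used strand is not stated, so reads of opposite genes may not be told apart. Left without these 20, the members held 42 higher and 25 lower of 83. LINC00341 and LINC01279 stayed among the 83, although SYNE3 and CCDC80, their current genes, were also counted under their own symbols. In 14 of the 20 pairs the partner was tested as well, and in 12 both were called, 4 in the same and 8 in opposite directions, with the pair LINC00526 and LINC00667 counted from both sides.

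LINC00094, now BRD3OS, lies opposite BRD3, a reader of acetylated histones. It had 3.85, 4.58 and 4.04 CPM in depleted cells, against 31.5, 28.0 and 27.4 CPM in replete cells (log2 fold change -2.58, SE 0.15, adjusted p = 3.53e-09), and BRD3 averaged 17.8 ± 3.07 CPM in depleted cells and 144 ± 8.30 CPM in replete cells (SD, n = 3 each). LINC01481, or PRANCR, known from epidermal progenitor cells, lies opposite CNOT2, a subunit of the CCR4-NOT deadenylase. It had 1.47, 1.72 and 1.5 CPM in depleted cells, against 14.8, 14.5 and 16.2 CPM in replete cells (log2 fold change -3.05, SE 0.19, adjusted p = 7.64e-09). CNOT2 went the other way, at 65.9 ± 7.58 CPM in depleted and 36.4 ± 0.627 CPM in replete cells (SD, n = 3 each; log2 fold change 1.09). LINC01004 and its neighbour KMT2E, which encodes a chromatin protein of the MLL family, were both higher. LINC01004 had 53.4, 56.7 and 54.6 CPM in depleted cells, against 30.7, 27.9 and 30.5 CPM in replete cells (log2 fold change 1.11), and KMT2E averaged 136 ± 3.99 CPM in depleted and 68.6 ± 3.99 CPM in replete cells (SD, n = 3 each; log2 fold change 1.22).

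Over all members, the change of the LINC RNA showed little relation to that of the nearest tested coding gene. The Pearson r of their log2 fold changes was 0.10 over 95 pairs, and 0.13 over 11695 pairs of neighbouring coding genes. It was 0.07 over the 75 members outside those with exon overlap, and LINC00341 and LINC01279 are among these 75. These are descriptions across genes measured in the same 6 libraries. The nearest coding gene lay more than 10 kb away for 56 members.

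**Figure D5:**
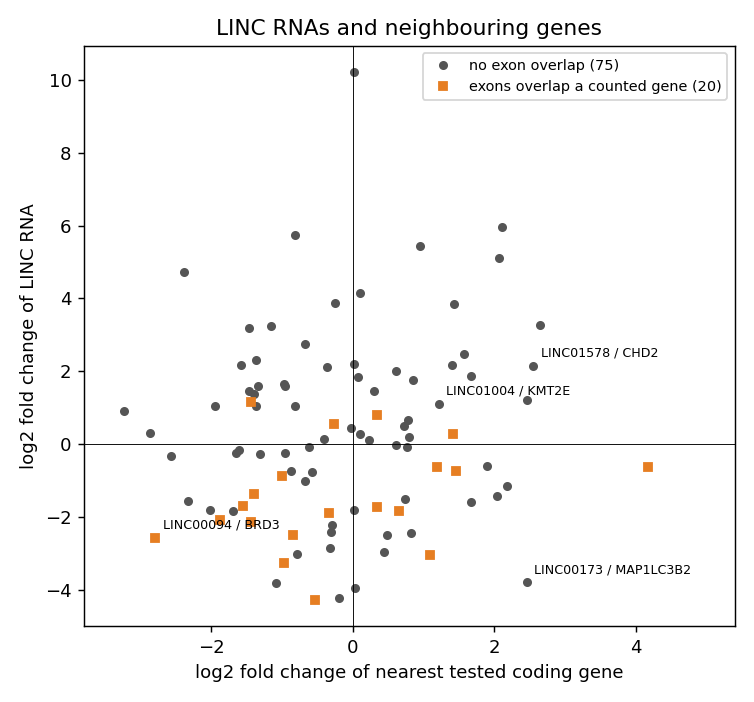
Log2 fold change (depleted over replete) of the LINC RNA on the vertical axis and of its nearest tested coding gene on the horizontal axis, 1 point per pair (n = 95). Marked points are members whose exons overlap any counted gene, which need not be the neighbour plotted. LINC01578 with CHD2 and LINC01004 with KMT2E lie in the upper right, LINC00094 with BRD3 in the lower left and LINC00173 with MAP1LC3B2 in the lower right.

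Some members share part or all of the bases at their 3′ ends with other genes. For 12 members (6 higher, 3 lower, 3 not called, beside 39.1% of all tested genes higher and 39.4% lower), the last 300 bases of a transcript match a counted gene elsewhere over at least 150 bases at 97% identity or more. A match could lie on either strand of the other gene, and a partial one leaves some bases of the end unmatched. LINC00623 and LINC00869 form such a pair and were both higher, by 1.66 and 1.87 on the log2 scale. LINC01106 and LINC01123 form another and were both lower, at -2.44 and -2.23. LINC01001 was not called while its near copy LINC01002 was higher, at 1.36, and the test of that difference was not made. LINC01123 passed the filter through the replete group and LINC01002 through the depleted group, so nothing is read from their size. In 75 members an end carried a poly(A) signal, and 13 had an internal run of at least 15 A, from which a 3′-end protocol can also start.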

How the data were processed

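H460 RNA was measured in 6 libraries, 3 glutamine-depleted and 3 glutamine-replete. Per the labels' protocols, 500 ng of TRIzol-extracted RNA per library went into the QuantSeq 3′ kit. Bowtie2, edgeR and hg19 are named in the submitters' processing notes, without roles or versions. Each deposited file holds raw counts, 1 value for each symbol of 1 library. How reads were counted, with or without strand, and on which annotation is not given in the sources used here.

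From these, entries of a symbol were summed (25737 entries, 24462 symbols). LINC symbols with at least 60 counts in total were taken. All genes passing filterByExpr (minimum count 10, total 15) were tested with edgeR 4.0.16 (R 4.3.3; robust quasi-likelihood F-test, TMM factors), two-sided, at a Benjamini-Hochberg adjusted p of 0.05. CPM was computed on library totals, and log2 fold changes on TMM factors (0.917 to 0.929 in depleted, 1.08 to 1.09 in replete libraries). The SE is the absolute log2 fold change divided by the root of F. Folds against 0 are bounds against 3 counts over the group. Ratios at few counts have exact 95% counting intervals.

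The members and lists were chosen with earlier results of these data known. The rule named the 8 largest changes each way among called members of at least 1 CPM on average without overlap, the 8 highest levels, all role list members and the 3 smallest changes of at least 5 CPM, 37 in all. Other members described, such as LINC00942, LINC01021 and LINC00094, were chosen after their values were seen. GENCODE 29 and RefSeq (GRCh38.p14) gave names, neighbours, overlaps, promoters and microRNAs only, since the counts are on hg19, and 3′ ends were compared with BLAST+ 2.17.0. All 103 members matched RefSeq, 95 matched GENCODE and 79 had a promoter entry.

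Alternatives were other scalings, filters and totals, DESeq2 1.42.0, limma-voom (limma 3.58.1), a replicate block and leaving out each library. TMM-scaled sums and the restriction to members at the filter's level in both groups were added after seeing the data. On simulated counts with these library totals, the test called 94 of 101 genes with a planted log2 fold change of 1 and 98 of 98 with one of 2, among 12620 tested. The simulation gave every gene and library the same dispersion and changed 200 genes, far fewer than were called in the data. It therefore checks that the code runs as meant and does not show how the test performs on these libraries.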

Additional observations from a re-analysis of the deposited data

How the results depend on the processing

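Of 555 values of the 37 named members under 15 alternatives, 532 kept their direction and their side of the threshold, and 30 members did so under every alternative. Leaving out the 20 members with exon overlap gave 25 lower members of 83, because 15 of those left out were called lower. With the replicate block, 44 members were higher and 40 lower. Same-numbered libraries had correlations of deviations of 0.119, 0.00611 and 0.0366, beside -0.0886 to 0.0458 for differently numbered ones. The value of 0.119, for replicate 1, was the highest of all. The numbers were not taken to pair samples, and the replicate block covers the case that they do. Library totals alone gave 42 higher and 43 lower members. Directions that turned round belonged to small changes. LINC00824 had -0.025 and -0.0066 with library totals and upper quartile factors. Under the same scalings, LINC00106 had -0.082 and -0.061 (0.15 as reported) and LINC00312 had -0.13 and -0.11 (0.10 as reported). Leaving out each library in turn gave -0.17 to 0.35 for LINC00106 (negative without depleted replicate 2), -0.047 to 0.34 for LINC00312 (negative without depleted replicate 1, replete replicate 1 or replete replicate 3) and -0.46 to 0.29 for LINC00998 (positive without depleted replicate 2). For these turns other than by scaling, the cause was not tested. LINC01296, not called as reported (-0.15), was called lower with library totals (-0.38) and upper quartile factors (-0.36). LINC00473 lost its call with no filter (adjusted p = 0.0804) and with limma-voom (0.0558). Added after seeing the data, TMM-scaled sums without LINC00152 averaged 2257 CPM in depleted and 1947 CPM in replete cells (2086 and 2106 CPM on library totals), and 20 and 13 of the 60 members at the filter's level in both groups were more than 2-fold higher and lower. At these depths a count of 0 in 1 library allows up to 0.275 to 0.397 CPM.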

Other observations

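Of 10 symbols that begin with LINC but are not LINC and digits, LINC-PINT alone had more than 10 counts in total. This long noncoding RNA had 23.8, 28.3 and 24.8 CPM in depleted cells, against 20.7, 20.7 and 21.3 CPM in replete cells (edgeR log2 fold change 0.52, SE 0.12, adjusted p = 0.00110), with no overlap between the groups. LINC-ROR, a transcript known from pluripotent stem cells, had 2 counts over the 6 libraries.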
